A study of Homo sapiens with 27 samples.

Results

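The mitosis genes described here are 40 genes of the G2 and M phases of the cell cycle, found by their symbols among the 26485 genes of the deposited count table. All 40 were in the table and all 40 were among the 14789 genes with enough counts to be tested, with 657 to 22973 counted fragments per gene and library. RNA was measured in 4 lines made from T47D, a luminal breast cancer cell line that expresses wild-type GATA3, with 3 libraries each. The control carried the empty pHAGE lentiviral vector, and the others carried 3xTy1-tagged GATA3 from the same vector on top of the cells' own GATA3: Splice del (a deletion at a splice acceptor site), C321fs or A333fs (frameshifts in the second zinc finger). All lines were under puromycin selection and below 10 passages. Each mutation was represented by 1 line, so the spread between its libraries is that of samples of 1 line, and a difference between lines cannot be told apart from one that arose in making the line. No cell cycle stage was measured or synchronised, and fewer cells in mitosis and less RNA per mitotic cell cannot be told apart in bulk RNA. The study also counted cells of these lines over several days. It reported no significant effect of the mutants on growth, with a slightly higher C321fs number at the last count.

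Cells entering mitosis activate cyclin B with CDK1, which condenses chromosomes and builds the spindle together with the Aurora and Polo kinases. Sister chromatids part once the spindle checkpoint is satisfied and the anaphase-promoting complex, a ubiquitin ligase, marks securin and cyclin B for destruction. The genes of this machinery are largely silent in quiescent cells and are switched on together in G2 by FOXM1 and by the B-MYB and MuvB proteins, which act at a promoter element called the CHR, often beside CCAAT boxes bound by NF-Y. Their summed RNA is widely used as a measure of how many cells in a culture are cycling.

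Libraries held 27872208 to 36788024 fragments. Of 9 luminal markers, GATA3, ESR1, FOXA1 and the keratins KRT8, KRT18 and KRT19 among them, all were detected, with a summed level of 18221 to 21444 CPM (counts per 1000000 of the TMM-scaled library size) in the control libraries and 12056 to 15002 CPM in the mutant lines. The 4 basal markers summed to at most 1.52 CPM in any library, with KRT5 at 0 to 0.09 CPM. The 7 fibroblast markers summed to 29.7 to 65.0 CPM, nearly all of it COL1A1, and the 5 blood cell markers to at most 6.51 CPM, with PTPRC at 0 in every library. RNA of genes with a high GC content was relatively more abundant in the control libraries than in the mutant lines: across all genes tested, the log2 level relative to the mean of the 12 libraries changed by 0.153 to 0.233 for each 10 percentage points of GC in the control libraries and by -0.171 to 0.059 in the 9 mutant libraries. The mitosis genes are poor in GC, with a median of 42.9% against 49.6% for all genes tested, so counts over groups of genes are given as counted and again after this trend, with that of gene length, was taken out of every library. The trend and the lines cannot be told apart by the design.

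As counted, the mitosis genes did not move as a block against control. A gene was counted as lower or higher at an adjusted p below 0.01, and as called where its fold change also exceeded 1.5. Splice del had 13 mitosis genes lower and 2 higher, C321fs had 9 lower and 4 higher, and A333fs had 8 lower and 6 higher. Of all genes tested, 22.4% were lower and 18.7% higher in Splice del. These shares were 20.7% and 16.1% for C321fs, and 26.4% and 21% for A333fs. The 13 lower genes of Splice del thus exceed the share among all genes, the 9 of C321fs are close to it and the 8 of A333fs lie under it, and the higher genes lie under it in each line. PLK1, AURKB, CDC20 and UBE2S, which act from the onset of mitosis to anaphase, were called in Splice del and in A333fs, all 4 lower by a factor of 1.54 to 1.69. None of the 40 was called in C321fs by edgeR or by DESeq2, and 1 was past the fold limit at an unadjusted p below 0.05. Among all genes tested 10.7% were called for Splice del, against 6.88% for C321fs and 12.3% for A333fs. The median log2 fold change of the 40 genes was -0.038, 0.069 and 0.00047 in Splice del, C321fs and A333fs, beside 0.032, 0.021 and 0.0086 for all genes tested.

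**Figure D1:**
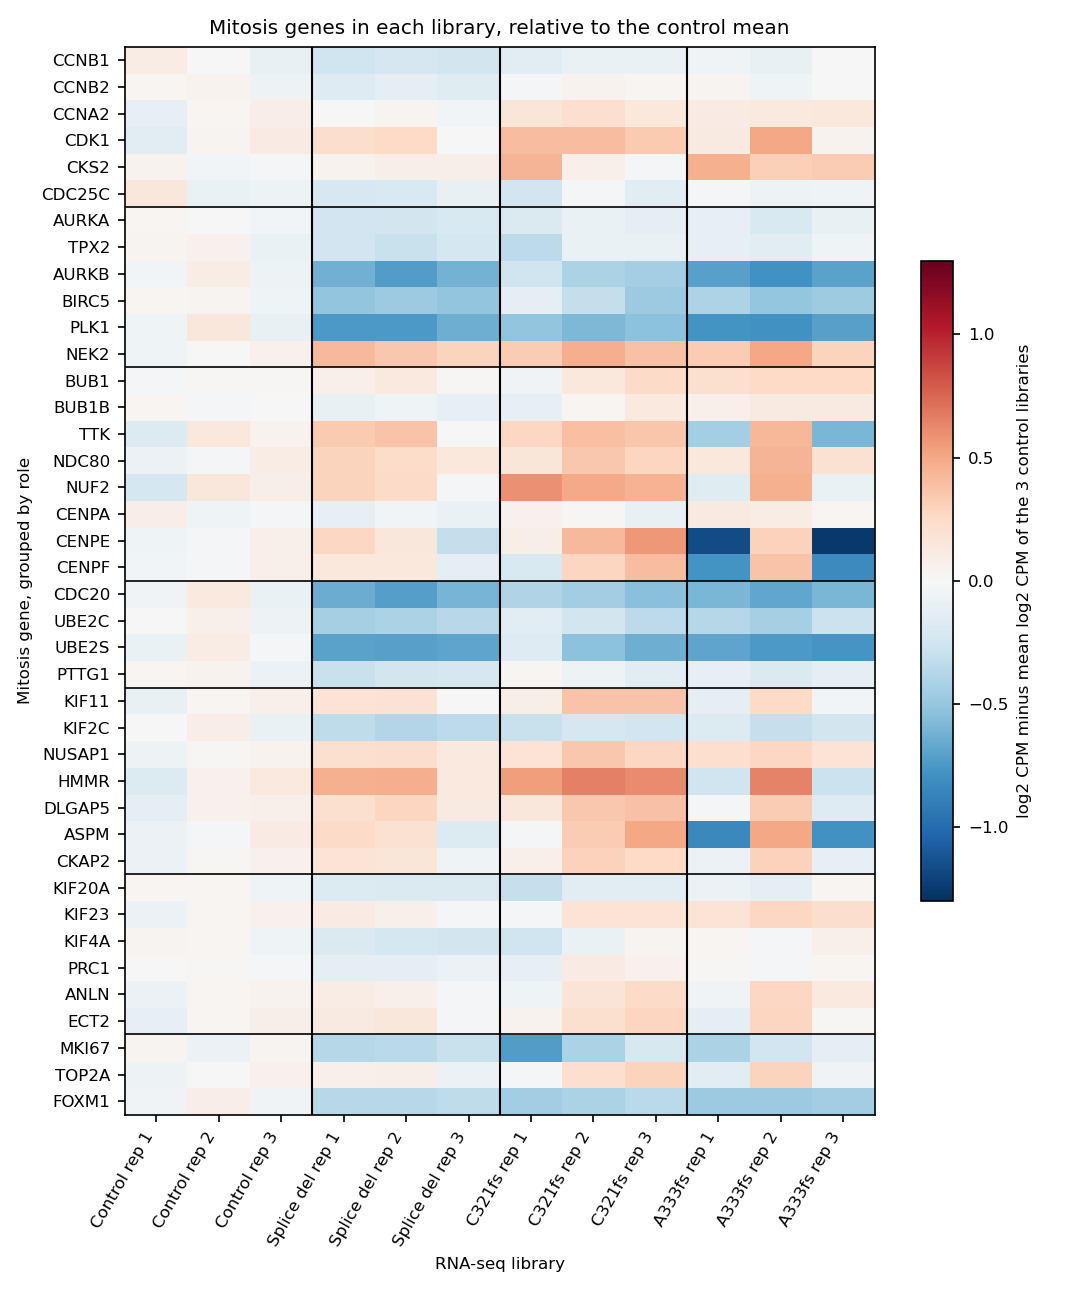
Each row is 1 mitosis gene and each column 1 library, and colour gives log2 CPM minus the mean log2 CPM of the 3 control libraries; black lines part the lines and the roles. PLK1, AURKB, CDC20 and UBE2S are low in every mutant library, NEK2 is high in every one, and CENPE, CENPF and ASPM are low in A333fs replicates 1 and 3 and not in replicate 2.

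The 3 comparisons share the control libraries. In each of the 3 lines 8 mitosis genes were lower (PLK1, AURKB, CDC20, UBE2S, BIRC5, UBE2C, KIF2C and FOXM1) and 2 were higher (NEK2 and NUSAP1), while 19 passed in none. The shares of all genes tested that passed in all 3 lines or in none were not counted, so these numbers have no background beside them. An F-test for any difference among the 4 lines passed for 15 of the 40 genes, beside the 56.2% of all genes tested that passed it. As a share of the TMM-scaled library size, the 40 genes took 0.700% ± 0.0152 (SD, n = 3) in control. Splice del stood at 0.632% ± 0.0170, C321fs at 0.688% ± 0.0325 and A333fs at 0.648% ± 0.0436. The scaling factors were 0.884 to 0.943 in the control libraries and 1.01 to 1.05 in the mutant libraries. Shares of the unscaled counts are therefore lower than these in control and higher in the mutant lines. The scaled values do not rank the lines by unscaled share. Per kilobase of exon, the highest level in control cells was that of UBE2S at 228 ± 13.9 RPKM (CPM per kilobase, SD, n = 3), followed by CKS2 at 177 ± 5.03, UBE2C at 175 ± 7.88 and CCNB1 at 173 ± 11.3, the latter 3 within their spread of each other. The lowest were ASPM, CDC25C and CENPE at 11.9 ± 0.78, 9.56 ± 0.89 and 5.80 ± 0.25 RPKM.

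The promoters of PLK1, AURKB and CDC20 are shown because these are 3 of the 4 genes with the smallest F-test p-values among the 40. FOXM1 is the other, and no promoter was matched for it. Of the 3 promoters, 2 carry the CHR element (TTTGAA, or TTCAAA on the other strand). All 3 carry a CCAAT box (CCAAT, or ATTGG on the other strand). AURKB has an annotated start further upstream, and its window lies inside the gene span of the count table. The sequences are those of RefSeq on GRCh38.p14, from 250 bases before to 50 bases after each start site, on the strand of the gene, and capitals mark the matches.
PLK1 promoter, chr16:23678639-23678938, plus strand: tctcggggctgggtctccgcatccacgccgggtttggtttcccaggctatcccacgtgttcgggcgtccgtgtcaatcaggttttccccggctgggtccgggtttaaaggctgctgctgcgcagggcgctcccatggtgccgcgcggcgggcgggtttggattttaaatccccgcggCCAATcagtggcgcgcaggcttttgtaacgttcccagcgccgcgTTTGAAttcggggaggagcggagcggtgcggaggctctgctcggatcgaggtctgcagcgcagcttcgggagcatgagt
AURKB promoter, chr17:8210176-8210475, minus strand: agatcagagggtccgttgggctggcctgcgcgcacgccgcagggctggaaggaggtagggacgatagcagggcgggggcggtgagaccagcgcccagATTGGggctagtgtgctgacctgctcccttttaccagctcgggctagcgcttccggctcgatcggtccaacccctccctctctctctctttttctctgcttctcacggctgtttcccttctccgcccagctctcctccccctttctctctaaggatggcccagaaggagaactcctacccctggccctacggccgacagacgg
CDC20 promoter, chr1:43358731-43359030, plus strand: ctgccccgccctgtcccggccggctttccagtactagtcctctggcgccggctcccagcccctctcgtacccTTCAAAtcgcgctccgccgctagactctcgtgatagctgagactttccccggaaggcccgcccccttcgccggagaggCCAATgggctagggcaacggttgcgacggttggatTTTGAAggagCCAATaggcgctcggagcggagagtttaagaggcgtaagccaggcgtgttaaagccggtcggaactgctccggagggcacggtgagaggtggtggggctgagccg
The PLK1 promoter held a CCAAT box and a CHR near the start site, the CDC20 promoter 2 of each, and the AURKB promoter 1 CCAAT box and no match to these CHR letters. A promoter was matched for 34 of the 40 mitosis genes, and 22 of them (64.7%) held a CHR match on either strand, against 9.64% of the 10620 promoters of genes tested. A CCAAT match was found in 26 (76.5%) against 36.6%, and both motifs in 18 (52.9%) against 4.08%. A match is a description of the letters only.

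Of the Aurora, Polo and NIMA-family kinases and their partners, 5 of 6 were lower in Splice del and 3 of 6 in both C321fs and A333fs, and 1, NEK2, was higher in each. After trend removal, 5, 5 and 5 of 6 were lower in Splice del, C321fs and A333fs and none was higher. Of all genes tested, 27.9%, 22.7% and 21.7% were lower in that fit and 12%, 9.09% and 9.8% higher. These shares apply to each role group below. PLK1, the Polo kinase of mitotic entry and spindle assembly (chr16:23678822-23690367, hg38), counted 271, 312 and 264 CPM in the control libraries, with Splice del at 167, 167 and 181, C321fs at 197, 188 and 194 and A333fs at 164, 163 and 172. Every mutant library was below every control library. The fall was 39.1% in Splice del (log2 fold change -0.72 ± 0.062 SE, edgeR adjusted p = 3.40e-07), 31.6% in C321fs (-0.55 ± 0.062, adjusted p = 8.27e-06) and 41.0% in A333fs (-0.76 ± 0.062, adjusted p = 1.50e-07). PLK1 exons overlap those of ERN2, and the counting did not use strand.

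AURKB, the kinase of the chromosomal passenger complex that corrects wrong attachments of chromosomes to the spindle (chr17:8204731-8210626), counted 97.5, 107 and 95.6 CPM in the control libraries, with Splice del at 64.8, 60.6 and 65.1, C321fs at 83.4, 75.2 and 73.6 and A333fs at 61.3, 58.1 and 61.7. The 4 lines fell into 3 levels, with control highest, C321fs between, and Splice del and A333fs lowest and overlapping. Splice del stood at a log2 fold change of -0.66 ± 0.063, C321fs at -0.37 ± 0.063 and A333fs at -0.73 ± 0.063 (edgeR adjusted p = 9.41e-07, 2.09e-04 and 2.65e-07). BIRC5, or survivin, is a partner of AURKB in the same complex, and counted 276, 279.6 and 261 CPM in the control libraries, with Splice del at 191, 197 and 191, C321fs at 249, 219.8 and 196 and A333fs at 206, 192 and 197. It fell by 29.2%, 18.6% and 27.1% in Splice del, C321fs and A333fs (edgeR adjusted p = 2.63e-05, 0.00239 and 4.42e-05). Its C321fs libraries spread from near the control range to the level of the other mutant lines.

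AURKA, the centrosome kinase, and TPX2, the spindle protein that activates it, passed as lower in Splice del, at -0.23 ± 0.050 and -0.26 ± 0.065 (edgeR adjusted p = 0.00113 and 0.00367). In A333fs they had log2 fold changes of -0.13 ± 0.049 and -0.100 ± 0.065, and the difference between the lines did not pass (edgeR adjusted p = 0.170 and 0.0955 for A333fs against Splice del). NEK2, a centrosome-splitting kinase chosen for this account after its values were seen, counted 40.8, 42.4 and 43.9 CPM in the control libraries, with Splice del at 56.6, 54.0 and 51.8, C321fs at 53.1, 58.9 and 55.3 and A333fs at 53.1, 59.9 and 51.7. Every mutant library was above every control library. NEK2 rose by 27.7%, 31.6% and 29.6% in Splice del, C321fs and A333fs (edgeR adjusted p = 3.67e-04, 2.01e-04 and 1.88e-04). NEK2 is poor in GC (40.9%), and after removal of the trend its log2 fold changes stood at 0.049, 0.11 and 0.041, none past the threshold.

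The group of the anaphase-promoting complex holds its activator CDC20, its E2 enzymes UBE2C and UBE2S, and its substrate securin, encoded by PTTG1. All 4 were lower in Splice del and 3 of 4 in C321fs and A333fs, with none higher, and 4, 3 and 4 of 4 were lower in the same order with the trend removed. CDC20 (chr1:43358955-43363202) counted 223, 251 and 216 CPM in the control libraries, with Splice del at 147, 139 and 150.4, C321fs at 175, 167 and 157 and A333fs at 152, 144 and 152. It fell by 36.7%, 27.5% and 35.1% in Splice del, C321fs and A333fs, with log2 fold changes of -0.66 ± 0.063, -0.46 ± 0.063 and -0.62 ± 0.063 (edgeR adjusted p = 8.23e-07, 3.39e-05 and 1.09e-06). The mutant libraries did not overlap the control libraries in any line.

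UBE2S, which extends ubiquitin chains on the complex's substrates (chr19:55401282-55407957), counted 256, 289 and 269 CPM in the control libraries, with Splice del at 167, 166 and 168, C321fs at 240.3, 187 and 174 and A333fs at 169, 161 and 159. The libraries of Splice del and A333fs lay close together, whereas C321fs replicate 1 lay just below the control range and above its own replicates. The log2 fold changes were -0.70 ± 0.089, -0.44 ± 0.088 and -0.74 ± 0.089 (edgeR adjusted p = 1.13e-05, 8.68e-04 and 5.54e-06). UBE2C, which starts those chains, counted 219, 231 and 211 CPM in the control libraries, with Splice del at 163, 165 and 172, C321fs at 199, 186 and 174 and A333fs at 169.9, 163 and 182. It fell by 24.3%, 15.5% and 22.0% in Splice del, C321fs and A333fs (edgeR adjusted p = 5.07e-05, 0.00358 and 1.11e-04). PTTG1 fell in Splice del (-0.25 ± 0.055, edgeR adjusted p = 0.00132) and had log2 fold changes of -0.062 ± 0.055 in C321fs and -0.15 ± 0.055 in A333fs, which did not pass.

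**Figure D2:**
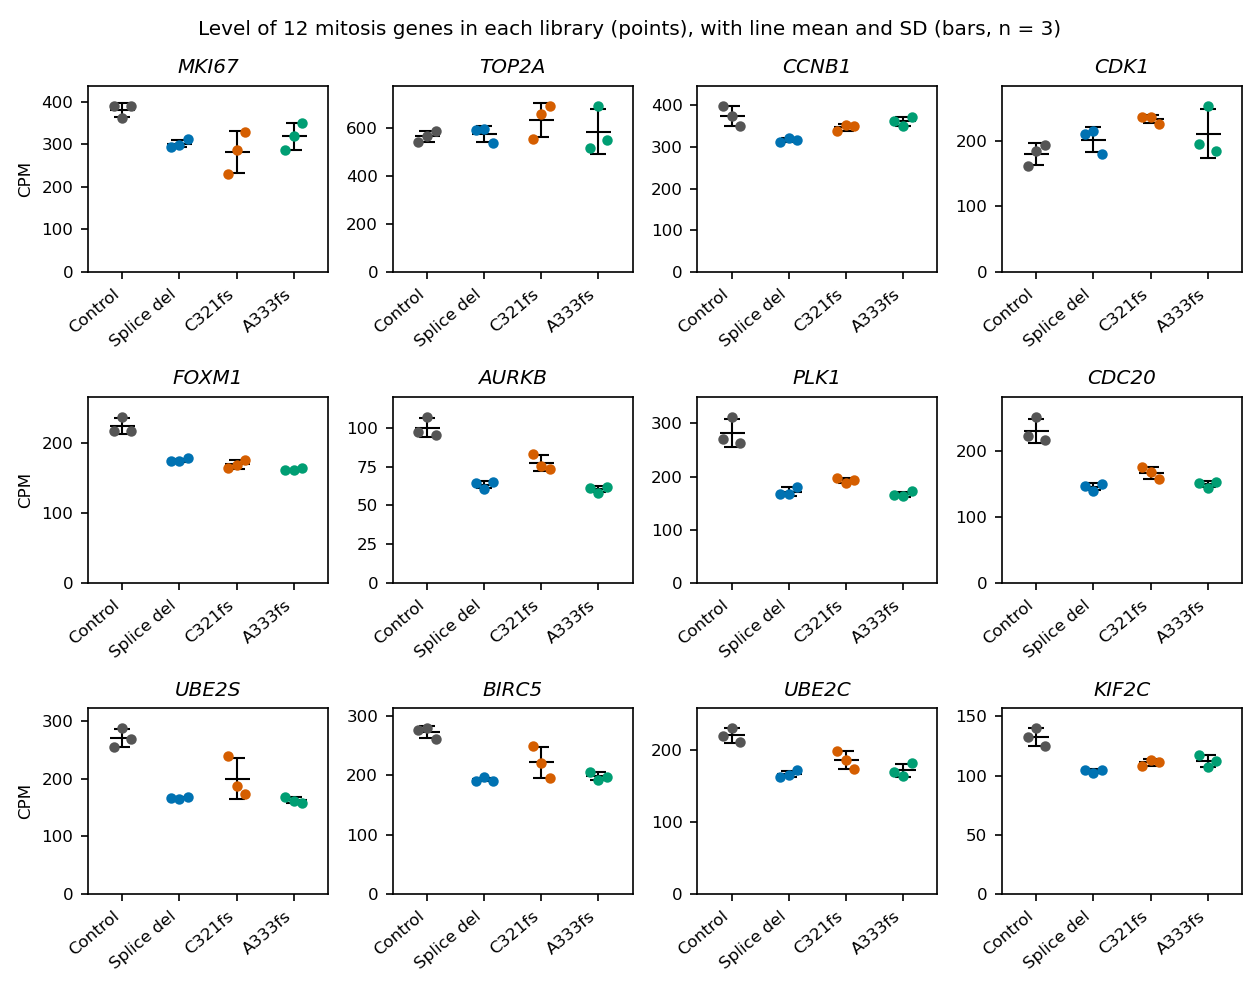
Level in CPM, from 0, of 12 mitosis genes in the 12 libraries (points), with the mean and SD of the 3 libraries of each line (bars). For PLK1, AURKB, CDC20, UBE2S, BIRC5, UBE2C, KIF2C and FOXM1 every mutant library lies below every control library, while those of TOP2A overlap.

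The cyclins and CDK1 are the engine of mitotic entry. Of the 6 genes of this group 1 was lower in Splice del, 1 higher in C321fs and 1 higher in A333fs. None was higher and 4, 1 and 3 of 6 were lower in Splice del, C321fs and A333fs with the trend removed. CCNB1, which encodes cyclin B1, counted 399, 375 and 349 CPM in the control libraries, with Splice del at 312, 322 and 316, C321fs at 337, 353 and 351 and A333fs at 363, 349.5 and 372. It fell in Splice del (-0.24 ± 0.054, edgeR adjusted p = 0.00133), while C321fs and A333fs overlapped control at -0.11 ± 0.054 and -0.050 ± 0.054. CDK1 counted 162, 184 and 194 CPM in the control libraries, with Splice del at 210.1, 215 and 180.2, C321fs at 236, 236 and 226 and A333fs at 194, 253 and 185. It rose in C321fs (0.37 ± 0.10, edgeR adjusted p = 0.00594), whereas Splice del and A333fs stood at 0.17 ± 0.10 and 0.23 ± 0.10 and overlapped control. CDK1 is the poorest in GC of the 40 genes (34.3%), and with the trend removed its values were -0.22, -0.074 and -0.095, of which the first passed as lower (edgeR adjusted p = 3.10e-04).

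CKS2, the small subunit that binds CDK1, rose in A333fs (0.37 ± 0.090, edgeR adjusted p = 0.00219), and with the trend removed stood at 0.014. CCNB2 and CCNA2, which encode cyclins B2 and A2, and CDC25C, the phosphatase that activates CDK1, passed in no line, with log2 fold changes from -0.17 (CDC25C in Splice del) to 0.17 (CCNA2 in C321fs). Among the chromosome proteins and the transcription factor, 2 of 3 were lower in both Splice del and C321fs and 1 of 3 in A333fs, and 3, 2 and 3 of 3 were lower in Splice del, C321fs and A333fs with the trend removed. MKI67, the antigen Ki-67 that coats mitotic chromosomes and marks cycling cells, counted 391, 362 and 390.2 CPM in the control libraries, with Splice del at 295, 299 and 312, C321fs at 231, 286 and 329 and A333fs at 287, 320.6 and 350.3. Every mutant library was below every control library, and it fell in Splice del (-0.34 ± 0.098, edgeR adjusted p = 0.00854) and C321fs (-0.43 ± 0.098, adjusted p = 0.00185), while A333fs at -0.25 ± 0.098 did not pass (adjusted p = 0.0341). C321fs replicate 1 was the lowest of all libraries for this gene.

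TOP2A, the topoisomerase that untangles sister chromatids, is the other marker gene of cycling cells and gave another picture. It counted 542, 569 and 589 CPM in the control libraries, with Splice del at 593, 599 and 539, C321fs at 556, 659 and 693 and A333fs at 516, 694 and 549.9, and the 4 lines overlapped. Splice del stood at a log2 fold change of 0.025 ± 0.097, C321fs at 0.17 ± 0.097 and A333fs at 0.050 ± 0.097 (edgeR adjusted p = 0.841, 0.162 and 0.678). With the trend of GC and length removed TOP2A turned to -0.32, -0.14 and -0.28, lower in Splice del and A333fs (edgeR adjusted p = 2.61e-05 and 1.24e-04). FOXM1, the transcription factor of the G2 programme, counted 218, 237 and 217 CPM in the control libraries, with Splice del at 175, 174 and 178, C321fs at 164, 168 and 176 and A333fs at 161, 161 and 164. It fell by 21.7%, 24.5% and 27.7% in Splice del, C321fs and A333fs (edgeR adjusted p = 2.95e-05, 1.65e-05 and 1.92e-06), with no overlap with control. FOXM1 exons overlap LOC100507424 in the annotation used.

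The spindle checkpoint and kinetochore genes, which hold back anaphase until chromosomes are attached, held none of 8 lower in any line as counted. After trend removal, 2, 1 and 4 of 8 were lower in Splice del, C321fs and A333fs, CENPE and CENPF being called in A333fs. NUF2, a subunit of the NDC80 complex that grips microtubules, rose in C321fs (0.51 ± 0.14, edgeR adjusted p = 0.00579). NDC80, its partner, and BUB1, a checkpoint kinase, rose in A333fs (0.27 ± 0.081 and 0.24 ± 0.066, edgeR adjusted p = 0.00989 and 0.00487). With the trend removed none of these 3 passed in those lines, and NDC80 and BUB1 in A333fs changed sign to -0.084 and -0.064. BUB1B (checkpoint), TTK (the checkpoint kinase MPS1), CENPA (the centromeric histone), CENPE (a kinetochore motor) and CENPF (a kinetochore protein) passed in no line as counted. Without A333fs replicate 2, TTK passed as higher in C321fs (0.34 ± 0.087, edgeR adjusted p = 0.00333). In A333fs TTK, CENPE and CENPF then passed as lower (-0.49 ± 0.10, -1.17 ± 0.14 and -0.77 ± 0.12). NDC80 then passed as higher in Splice del and C321fs (0.23 ± 0.067 and 0.26 ± 0.068) and no longer in A333fs (0.21 ± 0.075).

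Of the 7 spindle motors and microtubule proteins, KIF2C was lower and NUSAP1 higher in each mutant line as counted, whereas 3, 2 and 4 of 7 were lower and none higher in Splice del, C321fs and A333fs with the trend removed. KIF2C, a motor that shortens microtubules, counted 133, 140.2 and 125 CPM in the control libraries, with Splice del at 105, 102 and 104, C321fs at 108, 114 and 112 and A333fs at 117, 108 and 112, and fell by 21.7%, 16.2% and 15.3% in Splice del, C321fs and A333fs (edgeR adjusted p = 6.44e-05, 0.00127 and 0.00139). NUSAP1, which bundles spindle microtubules, had log2 fold changes of 0.19 ± 0.056, 0.27 ± 0.056 and 0.22 ± 0.056 (edgeR adjusted p = 0.00974, 0.00112 and 0.00282), which were -0.065, 0.018 and -0.082 with the trend removed, none past the threshold. HMMR, a spindle protein, had the largest positive log2 fold change of any mitosis gene against control, 0.60 ± 0.18 in C321fs, which did not pass (edgeR adjusted p = 0.0114). The spread of a gene was estimated over all 12 libraries. Without A333fs replicate 2, HMMR passed in C321fs (0.60 ± 0.081, edgeR adjusted p = 1.20e-05) and in Splice del (0.36 ± 0.081, adjusted p = 9.65e-04). KIF11 (the motor Eg5), DLGAP5, ASPM and CKAP2, all of the spindle, passed in no line as counted. Without A333fs replicate 2, KIF11 (0.28 ± 0.075) and DLGAP5 (0.30 ± 0.071) passed as higher in C321fs (edgeR adjusted p = 0.00408 and 0.00171). ASPM then passed as lower in A333fs (-0.78 ± 0.12, adjusted p = 4.58e-05). Of the 6 genes of the central spindle and cytokinesis, 1 passed as counted and 6, 5 and 3 of 6 were lower in Splice del, C321fs and A333fs with the trend removed. The one that passed as counted was KIF23 in A333fs (0.22 ± 0.063, edgeR adjusted p = 0.00590; -0.087 with the trend removed). KIF20A, KIF4A, PRC1, ANLN and ECT2, which build the midzone or the contractile ring, had log2 fold changes from -0.22 (KIF4A in Splice del) to 0.18 (ECT2 in C321fs).

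The fold change of a mitosis gene followed its GC content. Across the 40 genes, Pearson's r between the log2 fold change and the GC content of the exons reached -0.914 in Splice del and -0.901 in C321fs and was -0.694 in A333fs, beside -0.387, -0.422 and -0.504 across all genes tested. With the trend removed r was -0.609, -0.634 and -0.054 across the 40 genes and -0.0023, -0.022 and -0.025 across all genes, so that the relation remained among the mitosis genes in Splice del and C321fs. These are descriptions across genes that share libraries, and genes are not replicates. The 8 genes that were lower in each of the 3 lines are the 8 with the highest GC content of the 40, from 50.5% (KIF2C) to 66.0% (UBE2S). In that range of 50 to 70% GC, the median log2 fold change of these 8 was -0.577, -0.388 and -0.546 in Splice del, C321fs and A333fs, and that of the 7156 genes tested was -0.200, -0.202 and -0.311. At 40 to 45% GC the 11 mitosis genes had medians of 0.053, 0.172 and 0.224, below the 0.213, 0.208 and 0.273 of all genes tested in that range. In each of the 4 ranges of GC and each line the median of the mitosis genes was the lower one.

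**Figure D3:**
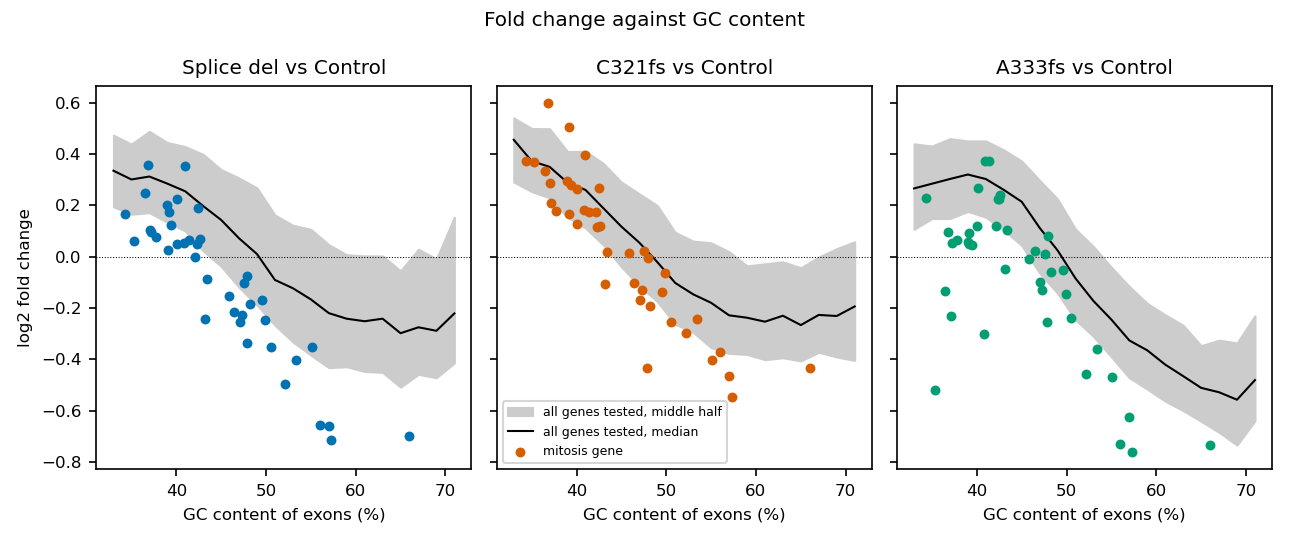
Log2 fold change against control (vertical) by GC content of the exons in percent (horizontal), 1 panel per mutant line. Points are the 40 mitosis genes; the black line and grey band are the median and the quartiles of all genes tested in bins of 2 percentage points. The points fall with GC content in each panel, from an r of -0.914 in the Splice del panel to -0.694 in the A333fs panel.

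After removal of both trends from every library, no mitosis gene was higher in any mutant line and more of them were lower: Splice del had 27 of the 40 lower, C321fs 19 and A333fs 26. Of all genes tested, 27.9%, 22.7% and 21.7% were lower in that fit and 12%, 9.09% and 9.8% higher. At an unadjusted p below 0.05, 1 mitosis gene was higher in C321fs in that fit and 0 in the others. The trend was fitted to genes outside the 40. The median log2 fold change of the mitosis genes became -0.272, -0.138 and -0.263 in Splice del, C321fs and A333fs, beside -0.056, -0.045 and -0.053 for all genes tested. The same 17 of the 40 were lower in all 3 lines, and the share of all genes lower in all 3 was not counted. The changes became smaller for GC-rich genes such as PLK1 and more negative for others such as CCNB1: PLK1 stood at -0.58, -0.43 and -0.52 and CCNB1 at -0.48, -0.34 and -0.35. PLK1, AURKB, CDC20 and UBE2S stayed below the adjusted p in all 3 lines and were no longer past a fold change of 1.5, and CENPE and CENPF in A333fs were the only mitosis genes called in that fit against control, where 7%, 4.44% and 5.42% of all genes tested were called in the respective lines.

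**Figure D4:**
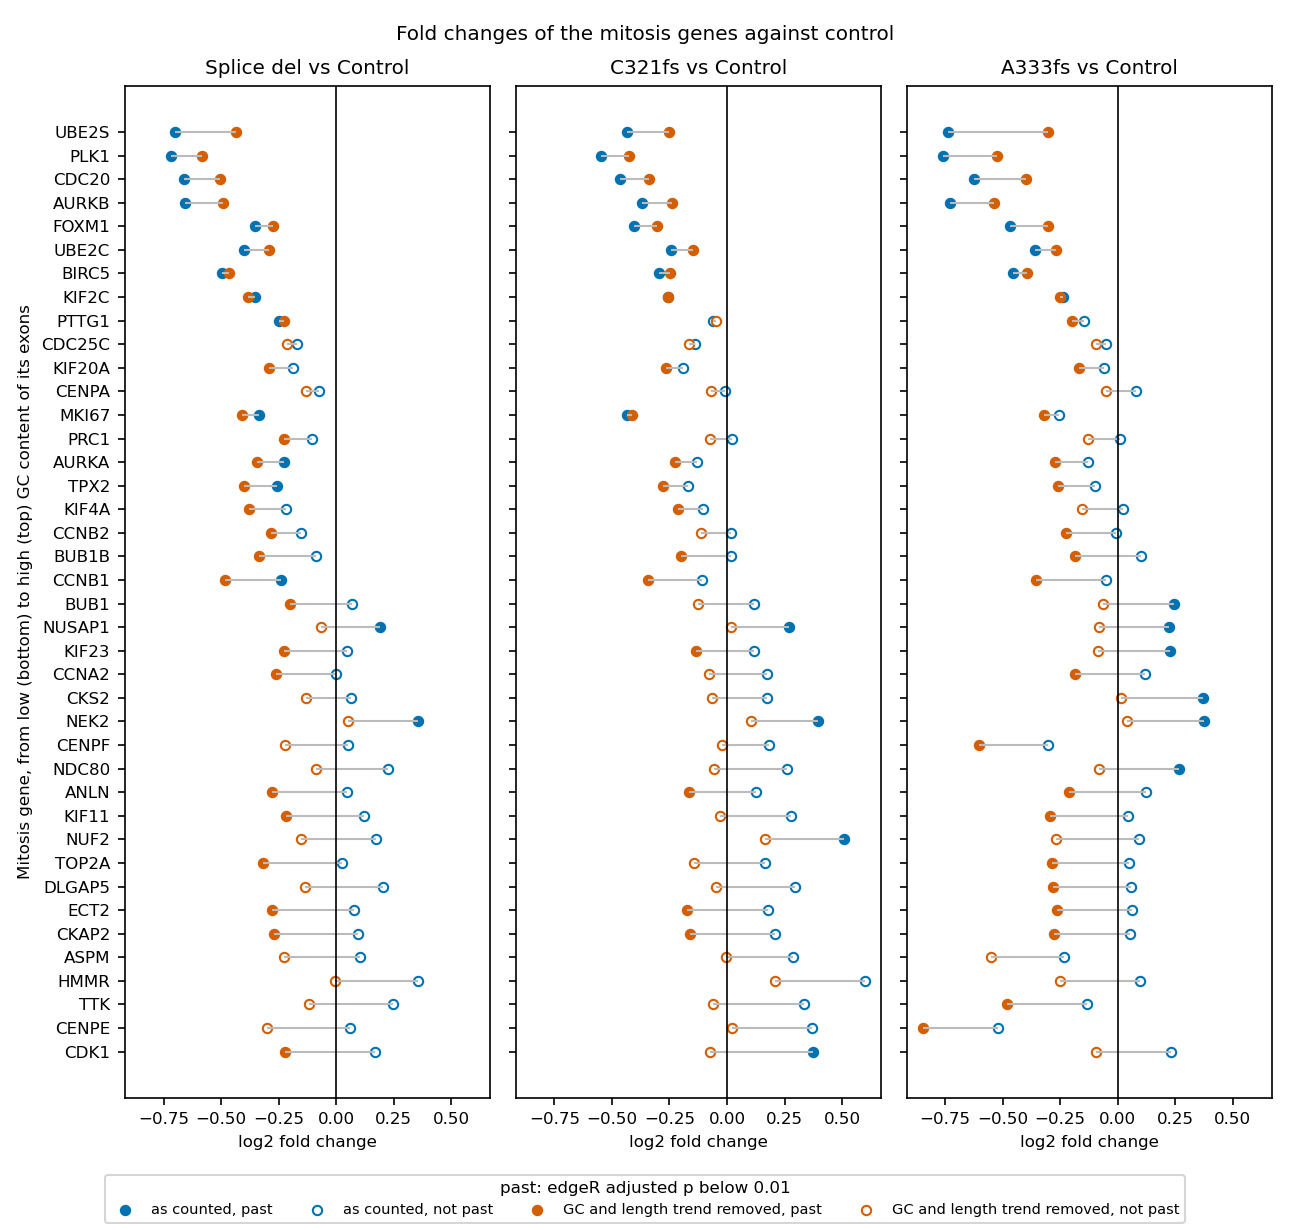
Log2 fold change against control of each mitosis gene as counted (blue) and after both trends were removed (orange), 1 panel per mutant line, genes ordered by the GC content of their exons; filled points have an edgeR adjusted p below 0.01. GC-poor genes at the bottom shift from near or above 0 to below it.

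Between mutant lines, few mitosis genes passed after adjustment as counted. As counted, 1 mitosis gene was lower in Splice del than in C321fs and 1 in A333fs than in C321fs, AURKB in both cases (-0.29 ± 0.063 and -0.36 ± 0.063, edgeR adjusted p = 0.00676 and 5.93e-04), and none was higher in edgeR or DESeq2. At an unadjusted p below 0.05, 12 were lower and 0 higher in Splice del than in C321fs, and 11 lower and 2 higher in A333fs than in C321fs. No mitosis gene passed in either direction between A333fs and Splice del, where 12 were higher and 1 lower at an unadjusted p below 0.05 and DESeq2 had 4 higher and 0 lower. No mitosis gene was called between any mutant lines by edgeR or DESeq2, and 1 was past the fold limit at an unadjusted p below 0.05, for A333fs against C321fs. Of all genes tested, 2.14% were lower, 4.18% higher and 2.64% called in Splice del against C321fs, 8.89%, 6.8% and 5.55% in A333fs against C321fs, and 7.29%, 4.63% and 3% in A333fs against Splice del. The median log2 fold change of the 40 genes was -0.113 in Splice del against C321fs, -0.059 in A333fs against C321fs and 0.043 in A333fs against Splice del, beside -0.011, -0.020 and -0.020 for all genes tested. In Splice del 37 of the 40 had the lower value of the pair with C321fs, as did 7824 of all 14789 genes tested. With the trend removed, 9 genes were lower in Splice del than in C321fs, 7 in A333fs than in C321fs, and 3 were higher in A333fs than in Splice del (BUB1B, KIF23 and KIF4A). Of all genes tested in that fit, 6.46% were lower and 6.11% higher in the first pair, 9.71% and 10.7% in the second and 6.54% and 10.3% in the third.

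The 3 A333fs libraries disagreed on a group of adenine-rich mitosis genes, which were picked after their values were seen. CENPE counted 22.3, 61.5 and 21.0 CPM in A333fs replicates 1, 2 and 3, and 48.1, 49.5 and 52.4 in control. CENPF counted 108, 239 and 104 CPM, ASPM 72.4, 184 and 74.99, HMMR 66.0, 123.2 and 65.1 and TTK 29.4, 53.9 and 26.4. In each case replicates 1 and 3 were alike. They lay below all control libraries for each of these 5 genes, and replicate 2 lay above all of them. The log2 gap of replicate 2 to the mean of replicates 1 and 3 was 1.504 for CENPE, 1.32 for ASPM, 1.17 for CENPF, 0.95 for TTK and 0.91 for HMMR, and it exceeded 0.5 for 6 of the 40 genes, NUF2 being the other. No other library lay more than 0.5 above the mean of its 2 replicates for any mitosis gene, and those farthest below were A333fs replicates 3 and 1 (-0.82 and -0.70), C321fs replicate 1 (-0.54) and Splice del replicate 3 (-0.51). The gap was not particular to mitosis genes: it had a median of 0.488 over the 337 genes tested with more than 34% adenine in their exons and of -0.0042 over the others, and of 0.931 and -0.022 over the 8 and 32 mitosis genes on either side of that value. Across the 40 genes the gap had an r of 0.766 with adenine content, -0.636 with GC content and 0.561 with log2 length.

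**Figure D5:**
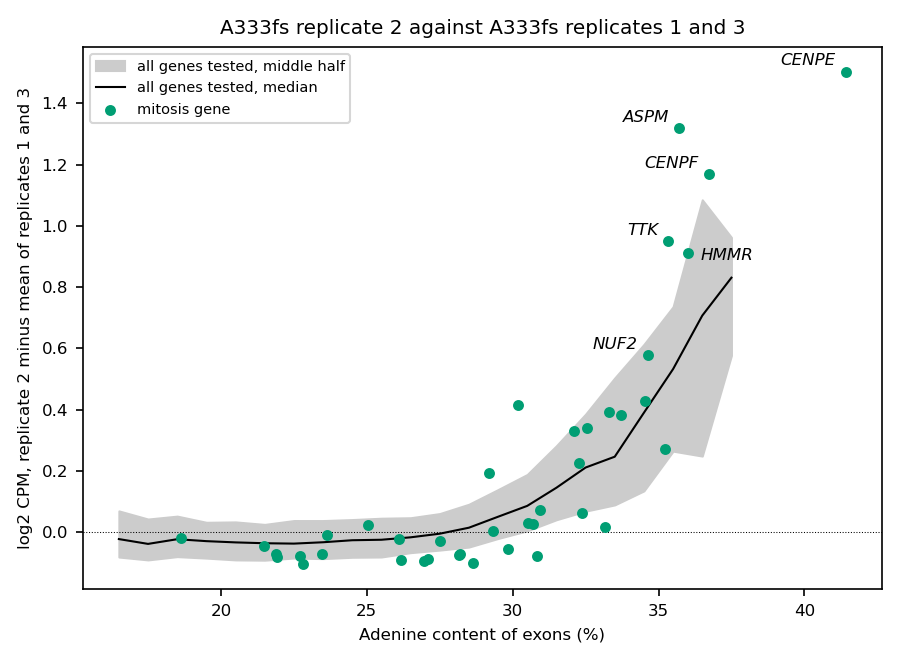
Log2 CPM of A333fs replicate 2 minus the mean of replicates 1 and 3 (vertical) by adenine content of the exons in percent (horizontal). Points are the 40 mitosis genes, named where the gap exceeds 0.5; the black line and grey band are the median and the quartiles of all genes tested in bins of 1 percentage point, and both rise with adenine content.

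As counted, these genes passed in no comparison with A333fs. Without A333fs replicate 2, 9 mitosis genes were lower in A333fs than in C321fs, 6 of them called, and 5 were lower than in Splice del, all 5 called. Of the genes tested without that library, 7.42% were lower and 5.99% called against C321fs, and 5.63% and 3.22% against Splice del. CENPE then stood at -1.54 ± 0.14 against C321fs and -1.23 ± 0.14 against Splice del (edgeR adjusted p = 1.33e-07 and 5.82e-06), and ASPM at -1.07 ± 0.12 and -0.89 ± 0.12 (adjusted p = 3.22e-06 and 6.57e-05). Against control, A333fs had 6 mitosis genes called without that library, where CENPE, CENPF and ASPM replaced CDC20 and 10.5% of all genes were called. With the trends of GC, length and adenine content removed, the gap of replicate 2 was 0.61 for CENPE, 0.75 for CENPF and 0.81 for ASPM, and it was below 0.5 for TTK (0.45), HMMR (0.39) and NUF2 (0.23). Its source was not tested.

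The remaining counts moved with single libraries as follows. The 4 genes called in Splice del were called without any 1 of the 12 libraries, and in A333fs CDC20 lost the call without Control replicate 2 or without A333fs replicate 2. In C321fs 1 gene was called without Control replicate 3 (PLK1), without C321fs replicate 1 (UBE2S) or without any of the A333fs replicates (HMMR, higher). The number of higher genes in C321fs, 4 with all libraries, was 9 without A333fs replicate 2 and 2 without Control replicate 1 or without C321fs replicate 2. In A333fs it was 6, and 2 without Control replicate 1 or 2 and 3 without A333fs replicate 3. In Splice del it was 2, and 4 without A333fs replicate 2 and 1 without any 1 of Control replicates 1, 2 or 3, Splice del replicates 1 or 2, or A333fs replicates 1 or 3. AURKB no longer passed between Splice del and C321fs without A333fs replicates 1 or 3, C321fs replicates 1 or 2, or any of the Splice del replicates, and without C321fs replicate 3 it passed with BIRC5 and UBE2S. Without C321fs replicate 1 PRC1 passed in its place. In A333fs against C321fs 3 genes were lower without C321fs replicate 3 and 2 without Control replicate 2, and 1 was higher without C321fs replicate 1. In A333fs against Splice del 4 genes were higher without C321fs replicate 1, 2 without C321fs replicate 3 and 1 without A333fs replicate 2.

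Other cell cycle genes were read from 6 further lists, against the all-gene shares of 22.4% lower and 18.7% higher for Splice del, 20.7% and 16.1% for C321fs, and 26.4% and 21% for A333fs. With the trend removed these shares were 27.9% and 12%, 22.7% and 9.09%, and 21.7% and 9.8% in the same order. Of 46 further G2 and M phase genes, 18 were lower and 0 higher in Splice del, against 12 and 5 for C321fs and 17 and 6 for A333fs, with medians of -0.067, 0.036 and -0.064 in the same order. The 0 higher in Splice del by edgeR compare with 5 at an unadjusted p below 0.05 and 1 by DESeq2. The 3 with the smallest F-test p-values were KIF22, a chromosome motor, ESPL1, the protease separase that parts chromatids, and INCENP, the scaffold of the AURKB complex. Their log2 fold changes in Splice del, C321fs and A333fs were -0.64, -0.41 and -0.60 for KIF22, -0.66, -0.48 and -0.64 for ESPL1 and -0.50, -0.53 and -0.52 for INCENP, all past the threshold. With the trend removed 26, 18 and 26 of the 46 were lower and 1, 1 and 0 higher in the 3 lines.

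The 16 subunits and coactivators of the anaphase-promoting complex itself moved in both directions: 5 were lower and 3 higher in Splice del, against 4 and 3 for C321fs and 3 and 5 for A333fs. Splice del had 9 lower and 1 higher with the trend removed, C321fs 5 and 0, and A333fs 2 and 1, and the medians moved from -0.105, 0.025 and 0.113 to -0.166, -0.164 and -0.114. ANAPC13 rose (0.35, 0.28 and 0.57), as did ANAPC16 (0.32, 0.21 and 0.33), while ANAPC2, the cullin subunit, fell (-0.37, -0.40 and -0.54). With the trend removed ANAPC16 passed in no line, and ANAPC13 passed in Splice del and A333fs. Of 18 condensin and cohesin genes, 6 were lower and 1 higher in Splice del, against 6 and 2 for C321fs and 5 and 2 for A333fs. Splice del had 10 lower and 0 higher with the trend removed, C321fs 8 and 0, and A333fs 12 and 0, and the medians moved from 0.083, 0.155 and -0.034 to -0.246, -0.087 and -0.320. CDCA5, the cohesion factor sororin, fell in each line (-0.50, -0.26 and -0.48), as did the condensin subunits NCAPH2 (-0.60, -0.42 and -0.73) and NCAPD3 (-0.45, -0.21 and -0.38).

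Among 22 regulators of cell cycle transcription, 6 were lower and 4 higher in Splice del, against 4 and 3 for C321fs and 7 and 5 for A333fs. Splice del had 10 lower and 0 higher with the trend removed, C321fs 5 and 0, and A333fs 8 and 2, and the medians moved from 0.059, 0.109 and 0.085 to -0.141, -0.055 and -0.130. MYBL2, which encodes B-MYB and acts with FOXM1 on G2 genes, fell (-0.64, -0.49 and -0.60) from 562 ± 49.9 CPM in control (SD, n = 3). E2F1 and E2F2, activators of S phase genes, also fell, with -0.60, -0.40 and -0.92 for E2F1 and -0.42, -0.23 and -0.53 for E2F2. Of 19 tested G1 cyclins, CDKs and CDK inhibitors, 4 were lower and 1 higher in Splice del, against 3 and 4 for C321fs and 8 and 5 for A333fs. Splice del had 8 lower and 1 higher with the trend removed, C321fs 3 and 3, and A333fs 7 and 5, and the medians moved from -0.043, 0.098 and -0.073 to -0.151, 0.061 and -0.100. PKMYT1, a kinase that holds CDK1 inactive, and CCND3, cyclin D3, fell, with -0.67, -0.48 and -0.80 for PKMYT1 and -0.55, -0.45 and -0.76 for CCND3, and CDKN2B, an inhibitor of CDK4 and CDK6, rose in A333fs (0.63) and stood at 0.024 and 0.038 in Splice del and C321fs.

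The 41 genes of DNA replication and S phase were compared as the earlier part of the proliferation programme. As counted, 24 were lower and 0 higher in Splice del, against 16 and 4 for C321fs and 20 and 2 for A333fs, with medians of -0.226, -0.124 and -0.154, further below 0 than those of the mitosis genes in each line. None was higher in Splice del by DESeq2 or at an unadjusted p below 0.05 either. No test of the difference between the lists was made. MCM2 and MCM5, of the replicative helicase, and CDT1, which loads it, led the list, with -0.73, -0.63 and -0.71 for MCM2, -0.68, -0.52 and -0.71 for MCM5 and -0.68, -0.43 and -0.85 for CDT1. With the trend removed 34, 24 and 32 of the 41 were lower and none higher in Splice del, C321fs and A333fs (1 higher at an unadjusted p below 0.05, in C321fs), and the medians of -0.339, -0.196 and -0.267 stood beside -0.272, -0.138 and -0.263 for the mitosis genes.

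Within lines, part of the mitosis genes varied together. After the mean of each line was subtracted, the correlation of a gene's log2 CPM with the mean of the others over the 12 libraries had a median of 0.248, beside 0.0091 for all genes tested against the mean of the 40. It exceeded 0.8 for 14 of the 40 genes, beside 5.08% of all genes tested against the mean of the 40, and was below 0 for 15. PLK1 (-0.220), CDC20 (-0.388) and UBE2S (-0.357) were among the latter, and CENPE (0.938), ASPM (0.949) and KIF11 (0.942) among the former. The points share libraries, depth and base composition. The mean log2 level of the 40 genes against control spread most in A333fs (SD 0.122, against 0.035 to 0.056 in the other lines). It was -0.180, 0.037 and -0.169 in A333fs replicates 1, 2 and 3. CENPE and ASPM are among the genes for which replicate 2 stood apart. How far that library carries these correlations was not tested.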

How the data were processed

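RNA from 12 libraries (4 lines, 3 replicates each) was sequenced as 150 bp paired-end reads from libraries made with the NEBNext Ultra II RNA kit. The authors deposited raw counts of properly paired fragments per gene, made per the file headers with featureCounts v1.6.4 without a strand option. The submitters' processing notes name HISAT2, featureCounts and DESeq2, and a folder name in the header points to another aligner, so the aligner is not settled here. Without strand, reads of 9 of the 40 genes cannot be told apart from those of an overlapping gene (CCNA2, PLK1, BUB1B, KIF20A, HMMR, ANLN, PRC1, FOXM1 and CDC25C). Coordinates, exon length and GC content follow the hg38 annotation of the count table, with exon sequence read from GRCh38.

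Samples were grouped by the labels. Counts were fitted with edgeR 4.0.16 (R 4.3.3): TMM scaling, filterByExpr by line, glmQLFit on all 12 libraries and two-sided quasi-likelihood tests for the 6 pairs of lines, with Benjamini-Hochberg adjustment over the 14789 genes tested. The thresholds, an adjusted p below 0.01 and a fold change above 1.5, are those in the study's text; 1 of its captions has an adjusted p of 0.05, tried as an alternative. SE is the log2 fold change divided by the square root of its F statistic. In a second fit a loess trend (span 0.3) of each library over GC content and length, estimated on genes other than the 40, was added as an offset. CPM uses TMM-scaled library sizes and RPKM divides it by exon length. Libraries held 27872208 to 36788024 counts, and the biological coefficient of variation was 0.0673. The study calls its replicates biological without saying whether they were separate cultures, so p-values measure the spread between these libraries. On simulated counts for A333fs against control over 14631 genes, 192 of 200 genes changed by 2-fold were recovered with 2 false calls.

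Values per library were given for MKI67, TOP2A, CCNB1, CDK1, FOXM1 and called genes, filled up to 12 by the smallest F-test p, and in each further list the 3 genes with the smallest F-test p were named; NEK2, CENPE, CENPF, ASPM, HMMR and TTK were added after their values were seen. The 40 genes, the lists and the tests were chosen with earlier results of these data known. Alternatives tried were DESeq2 1.42.0, RLE and upper-quartile scaling, other filters, 2 lines at a time, thresholds, left-out libraries, the replicate block, and trend removal. Replicate numbers did not pair libraries: the residuals of same-numbered libraries of different lines correlated with a mean r of -0.016 (-0.467 to 0.514, 18 pairs of libraries). The ChIP-seq samples of the series were not analysed here.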

Additional observations from a re-analysis of the deposited data

Results flagged for a closer look

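As counted, edgeR found AURKB alone of the mitosis genes to differ between mutant lines. DESeq2 had 4 genes higher in A333fs than in Splice del, and after trend removal 9, 7 and 3 genes passed in Splice del against C321fs, A333fs against C321fs and A333fs against Splice del. Its log2 fold change against control was lower in Splice del than in C321fs by a difference of -0.29 (SE 0.063, edgeR adjusted p = 0.00676) and lower in A333fs than in C321fs by a difference of -0.36 (SE 0.063, adjusted p = 5.93e-04). In both pairs every library of the lower line lay below every C321fs library, at 60.6 to 65.1 CPM in Splice del and 58.1 to 61.7 CPM in A333fs against 73.6 to 83.4 CPM in C321fs. The first difference no longer passed when any 1 of 7 libraries was left out, or with only the 2 lines in the fit, while the second passed without any 1 of the 12 libraries.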

How the results depend on the processing

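Every mitosis gene had 657 or more counts per library, so the precision rests on the spread between 3 libraries per line. Without any 1 library, the number called ranged from 4 to 4 in Splice del, 0 to 1 in C321fs and 3 to 6 in A333fs against control, and 0 to 0, 0 to 6 and 0 to 5 in Splice del against C321fs, A333fs against C321fs and A333fs against Splice del. In the same order, the number higher ranged from 1 to 4, 2 to 9, 2 to 6, 0 to 0, 0 to 1 and 0 to 4, the number lower from 10 to 16, 7 to 9, 8 to 11, 0 to 3, 1 to 9 and 0 to 5, and the median log2 fold change from -0.061 to -0.026, 0.041 to 0.080, -0.049 to 0.015, -0.156 to -0.092, -0.069 to -0.043 and 0.036 to 0.084.

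The fit without the GC and length trend gave 0, 0 and 2 calls, 27, 19 and 26 lower and 0 higher genes in Splice del, C321fs and A333fs against control, with medians of -0.272, -0.138 and -0.263. It gave 9 lower genes in Splice del against C321fs, 7 lower with 1 called in A333fs against C321fs, and 3 higher in A333fs against Splice del. With the A content trend removed as well, an alternative added after the data were seen, these became 0 calls, 28, 20 and 29 lower and 0 higher, with medians of -0.278, -0.155 and -0.252, then 11 lower, 7 lower and 3 higher. The genes with a positive value went from 19, 23 and 20 to 1, 5 and 2 without the GC and length trend. Among the 67 results compared one by one (genes past the adjusted p, and those named with values per library), several signs turned. They included CDK1 (-0.22 in Splice del, -0.074 in C321fs), and BUB1 (-0.064), NDC80 (-0.084) and KIF23 (-0.087) in A333fs. NUSAP1 (-0.065 in Splice del, -0.082 in A333fs) and TOP2A (-0.32 in Splice del, -0.28 in A333fs) turned too. This list is not complete, as CDK1 in A333fs and TOP2A in C321fs also turned. With A content included the values were CDK1 -0.24 and -0.095, BUB1 -0.10, NDC80 -0.034 and KIF23 -0.11. NUSAP1 then stood at -0.085, -0.0091 and -0.12 and TOP2A at -0.37, -0.20 and -0.28, in the order of the lines.

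Upper-quartile scaling brought the median of all genes from 0.032, 0.021 and 0.0086 to 0.12, 0.11 and 0.12 and that of the mitosis genes to 0.052, 0.155 and 0.112, with 2 called and 8 lower in Splice del, 2 called and 9 higher in C321fs. RLE scaling left 1 higher gene in Splice del and called 1 in C321fs. Without a low-count filter C321fs had 1 called and 8 higher, A333fs against C321fs 1 called and 7 lower, and A333fs against Splice del 3 higher. With only the 2 lines of each comparison fitted, Splice del had 6 higher, C321fs 1 called and 10 higher, Splice del against C321fs 0 lower and A333fs against Splice del 5 higher. DESeq2 had 4 higher in A333fs against Splice del and otherwise gave counts within 1.5 times. An adjusted p below 0.05 gave 1 call in C321fs and 1 in A333fs against C321fs, and a test against a fold change of 1.5 gave 0 calls in Splice del and A333fs. The replicate block, whose numbers do not pair libraries, gave 1 call in C321fs and 0 lower genes in Splice del against C321fs. The cause of these changes was not tested.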

Other observations

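The division between A333fs replicate 2 and replicates 1 and 3 was as wide in single adenine-rich genes outside the 40, picked for a large gap. Over all 337 genes tested with more than 34% adenine the median gap was 0.488, against 0.931 for the 8 mitosis genes among them. AKAP9, a large centrosomal and Golgi scaffold, had 27.9, 79.9 and 26.6 CPM in A333fs replicates 1, 2 and 3 and 66.0 to 77.3 CPM in control, a log2 gap of 1.55. KIF20B, a cytokinesis motor from the list of further G2 and M phase genes, had 47.1, 120.0 and 42.1 CPM, a gap of 1.43. GOLGA4, a Golgi tether, had 122.9, 329 and 131 CPM, a gap of 1.37. For these genes, too, replicate 2 was the highest of the 3 by more than 2-fold. They were chosen after their values were seen, from the genes with the largest gap.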
